A study of Rattus norvegicus with 18 samples.

Results

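The respiratory chain subunit genes were described in peripheral blood mononuclear cells (PBMC), a mixture of lymphocytes and monocytes separated from whole blood, of rats on 3 diets. Members were chosen by gene name: Nduf names for complex I, Sdha to Sdhd for complex II, Uqcr names for complex III, Cox4 to Cox8 names for complex IV and Atp5 names for complex V, the ATP synthase. Of 70 genes with such a name on the array, 68 had a Cy5 signal that the scanner software marked as well above background on 5 or more of the 18 arrays, and they stand among 21614 genes tested. The 68 were 30 subunits of complex I, 4 of complex II, 5 of complex III, 13 of complex IV, 13 of complex V and 3 genes that are not subunits. The 3 were Ndufaf1, a complex I assembly factor, Cox4nb (now Emc8) and Atp5s (now Dmac2l), and the counts below are over the 65 subunits unless stated. The 2 genes that did not pass were listed as Cox6b and Cox6c1, above background on 0 and 1 arrays. Of the 68, 65 passed that mark on all 18 arrays, and none was saturated.

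The animals were male Wistar rats, 6 per diet, 2 months old at the start, on their diet for 4 months and fasted for 14 h. In the low-fat control diet (LFD) fat gave 10% of the energy, protein 20% and carbohydrate 70%. These shares were 60%, 20% and 20% in the high-fat diet (HFD) and 10%, 45% and 45% in the high-protein diet (HPD), whose protein was mainly casein. Rats on HFD and HPD were given as much energy as the LFD rats ate. On every 2-colour array the RNA of 1 rat carried Cy5 and a pool of all samples carried Cy3, so every value is a log2 ratio of 1 rat to the pool, and a value of 0 means equal to the pool. A value says nothing of the level of one gene against another. One array is titled HFD replicate 7 while its other labels name HPD, and it was counted as HPD replicate 7.

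The respiratory chain sits in the inner mitochondrial membrane. Complexes I and II take electrons from NADH and succinate and pass them by coenzyme Q to complex III, cytochrome c carries them on to complex IV, which reduces oxygen, and complexes I, III and IV pump the protons that drive ATP synthase. Complexes I, III, IV and V also hold subunits encoded by mitochondrial DNA, and complex I has many accessory subunits around its core. The array names treated here are nuclear genes. Lymphocytes and monocytes use the chain for resting energy supply and adjust it on activation, and several subunits of complex IV have separate forms for muscle, lung or testis. In a mixed blood sample, fewer cells of a type and less RNA per cell cannot be told apart.

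The subunit promoters are shown because members whose log ratios moved together, and the 1 member past an unadjusted p of 0.05, could then be set beside their sequence. RefSeq (assembly GRCr8) had a promoter for 57 of the 65 subunits. In the 250 bases before the start, 4 motifs were searched on both strands: CGGAAGT, the core bound by ETS factors such as GABPA, GCGCATGC, the core of NRF1, ATGGCGGC, the core of YY1, and the CCAAT box. 6 of them are printed 5′ to 3′ in the gene's direction, with any of these motifs in capitals. They lie at chr9:72073606-72073855 (minus strand, Ndufs1), chr7:1099808-1100057 (plus, Atp5b), chr8:118467973-118468222 (plus, Uqcrc1), chr9:1637364-1637613 (plus, Ndufa11), chr5:141264403-141264652 (minus, Ndufs5b, now Ndufs5) and chr20:9613536-9613785 (plus, Ndufv3l, now Ndufv3).
Ndufs1: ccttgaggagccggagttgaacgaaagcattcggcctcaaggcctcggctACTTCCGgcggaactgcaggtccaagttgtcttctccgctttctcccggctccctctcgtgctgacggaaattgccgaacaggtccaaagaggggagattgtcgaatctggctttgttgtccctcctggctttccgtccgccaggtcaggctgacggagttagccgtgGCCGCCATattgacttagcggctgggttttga
Atp5b: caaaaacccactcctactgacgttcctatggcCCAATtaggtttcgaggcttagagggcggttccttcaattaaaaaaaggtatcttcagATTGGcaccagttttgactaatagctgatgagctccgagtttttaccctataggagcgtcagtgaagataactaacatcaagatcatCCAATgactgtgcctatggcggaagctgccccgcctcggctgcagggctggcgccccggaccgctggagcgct
Uqcrc1: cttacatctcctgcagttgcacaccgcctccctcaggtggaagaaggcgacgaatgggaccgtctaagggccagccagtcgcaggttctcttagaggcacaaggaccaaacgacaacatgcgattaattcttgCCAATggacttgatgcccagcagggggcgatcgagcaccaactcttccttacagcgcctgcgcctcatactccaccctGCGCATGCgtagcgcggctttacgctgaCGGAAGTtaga
Ndufa11: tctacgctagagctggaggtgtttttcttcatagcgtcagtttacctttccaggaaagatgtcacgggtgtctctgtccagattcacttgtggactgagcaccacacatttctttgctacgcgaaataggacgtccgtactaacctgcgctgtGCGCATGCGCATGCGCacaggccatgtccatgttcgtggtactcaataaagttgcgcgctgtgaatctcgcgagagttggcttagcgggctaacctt
Ndufs5b: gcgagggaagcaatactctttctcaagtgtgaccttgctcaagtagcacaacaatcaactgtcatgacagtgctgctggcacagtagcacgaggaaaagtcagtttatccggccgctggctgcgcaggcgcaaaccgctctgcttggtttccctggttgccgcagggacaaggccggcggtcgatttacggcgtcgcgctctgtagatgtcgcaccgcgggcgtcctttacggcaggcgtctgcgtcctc
Ndufv3l: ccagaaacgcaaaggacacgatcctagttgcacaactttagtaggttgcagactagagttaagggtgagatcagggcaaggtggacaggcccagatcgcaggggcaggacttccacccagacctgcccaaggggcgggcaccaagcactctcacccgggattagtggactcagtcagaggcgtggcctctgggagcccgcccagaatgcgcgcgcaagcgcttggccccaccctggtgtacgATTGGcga

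CGGAAGT was found in 13 of the 57 subunit promoters (22.8%), against 10.8% of 5560 promoters of tested genes matched by symbol and 5.22% of all 33469 promoters. GCGCATGC was found in 7 (12.3%), against 4.5% and 2.2%. ATGGCGGC was found in 1 (1.75%), against 2.03% and 1.15%, and CCAAT in 19 (33.3%), against 36.7% and 34%. Of the promoters shown, Ndufs1 held an ETS and a YY1 motif, Uqcrc1 an ETS, an NRF1 and a CCAAT motif, and Atp5b 3 CCAAT motifs. Ndufa11 held 4 overlapping NRF1 matches in one repeat, Ndufv3l a CCAAT motif, and Ndufs5b none of the 4. The median GC content was 56.8% in subunit promoters and 51.2% in all promoters, and is not given for the 5560. Those are only a part of the 21614 genes tested, and the subunits were matched by their current symbol. A match is a description of letters only.

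LFD replicates 2 and 6 stood apart before any comparison. On these arrays 2505 and 2548 genes lay over 1 log2 unit from the LFD mean, against 486 to 1064 on the other 16 arrays, and the log ratios of these 2 arrays correlated at -0.48 over genes. The labels state Cy5 for the animal on every array, so the direction was kept. For the subunits whose values moved most without these arrays, the value without them is given beside the full one. The arrays lay on 5 slides, and only slide 3 held all 3 diets, in unequal numbers. Slides 1 and 5 held no HPD array, slide 2 no LFD array and slide 4 no HFD array. HPD and LFD thus shared slides 3 and 4, and HPD and HFD slides 2 and 3, which limits values with slide in the model. T cell, B cell, NK cell and monocyte markers were measured in every group, with 9 of 10, 5 of 7, 7 of 8 and 6 of 7 listed markers tested. Of the 5 muscle markers, Ckm, Myh7 and Tnnt2 were above background on 1, 0 and 3 arrays, Actn2 on 9 and Mb, myoglobin, on all 18.

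**Figure D1:**
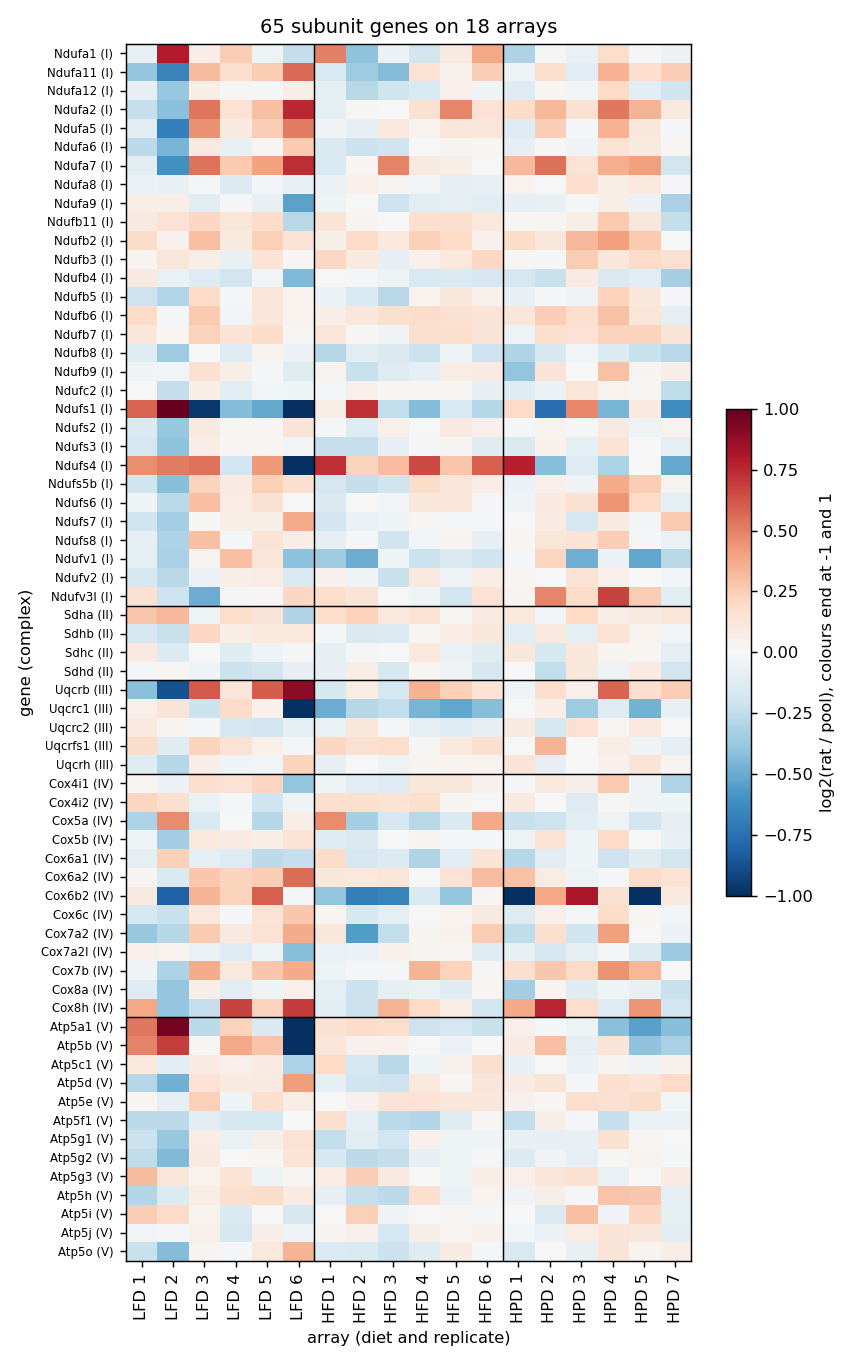
Log2 ratio of rat to pool for 65 subunit genes (rows, by complex) on 18 arrays (columns, by diet and replicate); colours end at -1 and 1, and black lines part complexes and diets. Most cells are pale, and the darkest lie in few rows, on LFD replicates 2 and 6 above all, where Ndufs1 reached 1.31 and -2.42.

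No subunit gene passed the test for a difference between diets. By limma with Benjamini-Hochberg adjustment over all 21614 genes, 0 of 65 subunits were called in HFD against LFD, in HPD against LFD or in HPD against HFD, where 0% of all genes were called in each. The lowest adjusted p of a subunit was 0.9999, 0.9999 and 0.994. At an unadjusted p under 0.05, 0 subunits passed in HFD against LFD (2.12% of all genes), 1 in HPD against LFD (2.97%) and 0 in HPD against HFD (3.11%). The moderated F test over the 3 diets called 0 subunits (0% of all genes) and 0 at an unadjusted p under 0.05 (2.42%). The 3 comparisons share their arrays, so their values stand side by side and are not independent of each other.

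The differences themselves were small. The median absolute difference of the 65 subunits was 0.04, 0.05 and 0.08 on the log2 scale in the 3 comparisons, beside 0.11, 0.12 and 0.13 over all genes. Subunits and all genes were not matched for signal strength. The 95% interval of the difference lay within 0.5 log2 units of 0 (a 1.41-fold change) for 55, 57 and 53 of 65 subunits. It lay within 0.25 (1.19-fold) for 29, 24 and 22, so for most subunits a change of that size is not bounded by these arrays.

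Averaged over its subunits, each complex stayed near the pool on every diet. The mean of complex I, which oxidises NADH, ran from -0.14 to 0.11 on the LFD arrays, with a median of -0.00485, from -0.05 to 0.05 on HFD (median 0.00802) and from -0.09 to 0.17 on HPD (median 0.05). The lowest LFD value was that of replicate 2, the highest HPD value that of replicate 4, and the 3 diets overlapped. The mean difference was 0.00369 for HFD against LFD, 0.04 for HPD against LFD and 0.04 for HPD against HFD.

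Complex II, the succinate dehydrogenase, had means of -0.07 to 0.05 on LFD, -0.05 to 0.07 on HFD and -0.08 to 0.08 on HPD. Complex III, which passes electrons to cytochrome c, ran from -0.22 to 0.13, from -0.12 to 0.00842 and from -0.03 to 0.12. In both complexes every pair of diets overlapped. The largest mean difference of a complex was that of complex III for HPD against HFD, at 0.08, and with slide in the model it was 0.03.

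Complex IV, the cytochrome c oxidase, ran from -0.16 to 0.11 on LFD, -0.18 to 0.07 on HFD and -0.11 to 0.11 on HPD, and complex V from -0.24 to 0.05, -0.11 to 0.02 and -0.06 to 0.03. The lowest complex V value, on LFD replicate 6, lay below every other array. Over all 65 subunits the mean difference was -0.01 for HFD against LFD, 0.02 for HPD against LFD and 0.03 for HPD against HFD. Without LFD replicates 2 and 6 the first was -0.06 and the second -0.03. No p is given for these means, since they are scores over chosen members.

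**Figure D2:**
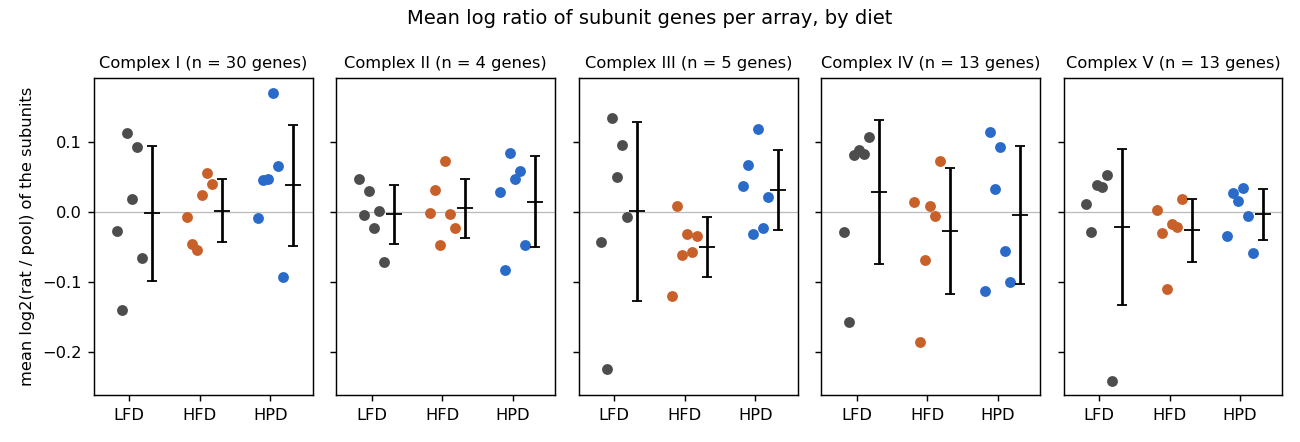
Mean log2 ratio of rat to pool over the subunits of each complex (y axis), 1 point per array, by diet; the bar beside each group is the mean and SD (n = 6). The diets overlap in every complex, and the lowest point of complex V is LFD replicate 6 at -0.24.

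By sign, 28 of 65 subunits were higher and 37 lower in HFD than in LFD, where 50.2% of all genes were higher. In HPD against LFD 41 were higher (63.1%), beside 55.0% of all genes, and in HPD against HFD 45 (69.2%), beside 54.5%. Complex I gave 24 of 30 higher in HPD against LFD and 23 of 30 against HFD, and complex IV 3 of 13 and 7 of 13. Without LFD replicates 2 and 6 the median difference of complex I for HPD against LFD was -0.00111 in place of 0.05.

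Among complex I subunits, Ndufv3l, an accessory subunit of the NADH-binding module, was the 1 member past an unadjusted p of 0.05. Its log2 ratio was -0.50, -0.00270 and 0.20 on LFD (lowest, median, highest), -0.18, 0.06 and 0.18 on HFD, and -0.10, 0.22 and 0.68 on HPD. HPD replicates 4, 2 and 5 lay above all LFD and HFD arrays, and the other 3 HPD arrays overlapped them. HPD exceeded LFD by 0.31 ± 0.14 (SE, n = 6 and 6, limma unadjusted p = 0.0423, adjusted p = 0.9999). With slide in the model the difference was 0.47 (limma unadjusted p = 0.00777), and without LFD replicates 2 and 6 it was 0.34 (limma unadjusted p = 0.0453). The limma unadjusted p of Ndufv3l was not under 0.05 without LFD replicate 2, 3 or 4, or without HPD replicate 2, 4 or 5.

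Ndufs4, an accessory subunit needed for late assembly of the complex, had the lowest p for HPD against HFD. Its log2 ratio was 0.22, 0.45 and 0.73 on HFD, -0.51, -0.22 and 0.78 on HPD, and -1.26, 0.45 and 0.54 on LFD. All 6 HFD arrays were above the pool, 5 of 6 HPD arrays below it, and HPD replicate 1 was the highest array of all. HPD minus HFD was -0.57 ± 0.28 (limma unadjusted p = 0.0571, adjusted p = 0.994). LFD replicates 2 and 6 do not enter this difference, only the estimate of its spread. Without them the limma unadjusted p was 0.0122, where 5.46% of all genes were under 0.05 in place of 3.11%. HFD minus LFD was 0.38 ± 0.28, and 0.16 without those arrays.

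Ndufa8, a small intermembrane-space subunit named here after its values were seen, was the 1 subunit whose groups did not overlap in any comparison. Its log2 ratio was -0.14 to -0.01 on LFD and -0.01 to 0.17 on HPD, and 0.0879% of all genes did not overlap in that comparison. The highest LFD array and the lowest HPD array were both at -0.01 after rounding, and the difference of 0.12 ± 0.07 had an unadjusted limma p of 0.109. No subunit was without overlap in HFD against LFD (0.0925% of all genes) or in HPD against HFD (0.236%). Ndufa8 also had the narrowest spread of all 65, with a residual SD of 0.06.

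The core subunits of complex I that carry the redox centres did not follow one pattern. Ndufv1, which binds NADH and flavin, was at -0.41, -0.03 and 0.30 on LFD, -0.49, -0.21 and -0.04 on HFD and -0.52, -0.17 and 0.22 on HPD. All HFD arrays lay below the pool and within the LFD range except 1, and HFD minus LFD was -0.18 ± 0.15. It was -0.33 without LFD replicates 2 and 6 (limma unadjusted p = 0.0367) and -0.07 with slide in the model. Ndufs1, the large iron-sulphur subunit, is described with the most variable members, and Ndufa1, an accessory membrane subunit, had differences of -0.07, -0.17 and -0.10.

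The complex II subunits had differences of at most 0.04 in size. Sdha, the flavoprotein that binds succinate, was at -0.30, 0.15 and 0.32 on LFD, 0.01, 0.12 and 0.23 on HFD and -0.03, 0.10 and 0.20 on HPD. The HFD and HPD arrays all lay inside the LFD range. Its 3 differences were 0.03, 0 and -0.03 to 2 decimals, each ± 0.10. Sdhb, the iron-sulphur protein, differed by -0.03, -0.01 and 0.02, and Sdhc, a membrane anchor, by 0.01, 0.04 and 0.03.

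In complex III the core protein Uqcrc1 had the lowest p of any subunit for HFD against LFD. It was at -1.05, 0.04 and 0.19 on LFD, -0.52, -0.45 and -0.25 on HFD and -0.47, -0.10 and 0.06 on HPD. LFD replicate 6 was the lowest array, and the other 5 LFD arrays lay above all 6 HFD arrays. HFD minus LFD was -0.26 ± 0.17 (limma unadjusted p = 0.150). Without LFD replicates 2 and 6 it was -0.42, with an unadjusted p of 0.00302 and an adjusted p of 0.898 (0.723 to 1 over the 36 alternatives run). HPD exceeded HFD by 0.25 ± 0.17, and by 0.03 with slide in the model. Those LFD arrays enter only the spread estimate of the difference of 0.25. Without them its limma unadjusted p was 0.0356, where 5.46% of all genes were under 0.05 in place of 3.11%.

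The other 4 complex III members had differences of at most 0.12 in size. Uqcrfs1, the Rieske iron-sulphur protein, was at -0.12, 0.10 and 0.23 on LFD, 0.01, 0.16 and 0.20 on HFD and -0.09, 0.00329 and 0.34 on HPD, with overlap throughout. Its differences were 0.06, -0.03 and -0.08, each ± 0.09. Uqcrc2, the second core protein, differed by 0.01, 0.09 and 0.08.

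Complex IV holds the pairs of tissue forms. Cox4i1, the common form of subunit 4, differed by -0.02, -0.01 and 0.01, each ± 0.12. Cox4i2, the lung form, was at -0.20, -0.03 and 0.21 on LFD, 0.00231, 0.15 and 0.16 on HFD and -0.13, -0.02 and 0.10 on HPD. All 6 HFD arrays lay above the pool, and all were inside the LFD range. HPD minus HFD was -0.13 ± 0.09 (limma unadjusted p = 0.170).

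Cox6a2 and Cox8h (now Cox8b) are the heart and muscle forms of their subunits. Cox6a1, the liver form, differed by 0.03, -0.06 and -0.09, and Cox6a2 by -0.06, -0.09 and -0.03, each ± 0.11. Cox8a, the common form, differed by 0, -0.03 and -0.03 to 2 decimals. Cox8h, above background on 16 arrays, differed by -0.21, 0.01 and 0.22, each ± 0.20, and the next brightest of its probes gave 0.28 for HFD against LFD, the other sign. Cox6b2, the testis form of subunit 6b, was also above background on 16 arrays. It was at -0.81, 0.16 and 0.60 on LFD, -0.69, -0.39 and 0.02 on HFD and -1.12, 0.12 and 0.82 on HPD, and its differences were -0.45, -0.19 and 0.26, each ± 0.30. Without LFD replicates 2 and 6 the first was -0.69 (limma unadjusted p = 0.0462) and the second -0.43. Beside these forms, the muscle markers Actn2 and Mb had HFD minus LFD of -0.65 ± 0.26 (limma unadjusted p = 0.0213) and -0.18 ± 0.16, and their part in the subunit values was not tested.

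The remaining named members of complex IV showed overlap on all diets. Cox5a, which with Cox4i1 joins the complex early in assembly, differed by 0.02, -0.11 and -0.13, each ± 0.16. Cox7a2, the liver form of subunit 7a, differed by -0.09, -0.02 and 0.07, and Cox7a2l, which links complexes III and IV, by 0.07, -0.04 and -0.12. Cox7b differed by -0.04, 0.11 and 0.15.

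In complex V the catalytic subunits had wide intervals and the others narrow ones. Atp5a1 (now Atp5f1a), the alpha subunit, differed by 0.12, -0.10 and -0.22, each ± 0.35, and Atp5b (now Atp5f1b), the catalytic beta subunit, by -0.00428, -0.08 and -0.08, each ± 0.29. Without LFD replicates 2 and 6, Atp5a1 turned sign in HFD against LFD, at -0.10, and was at -0.32 in HPD against LFD. Atp5b was then at -0.27 and -0.34, the second with a limma unadjusted p of 0.0225. The c-ring is encoded by Atp5g1, Atp5g2 and Atp5g3, whose mature proteins are the same. They differed by -0.04, -0.06 and -0.03 for HFD against LFD, by 0.05, 0.03 and -0.04 for HPD against LFD and by 0.09, 0.09 and -0.02 for HPD against HFD, with SEs of 0.09 to 0.10. Atp5d, the delta subunit of the central stalk, differed by -0.04, 0.12 and 0.16, each ± 0.13.

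**Figure D3:**
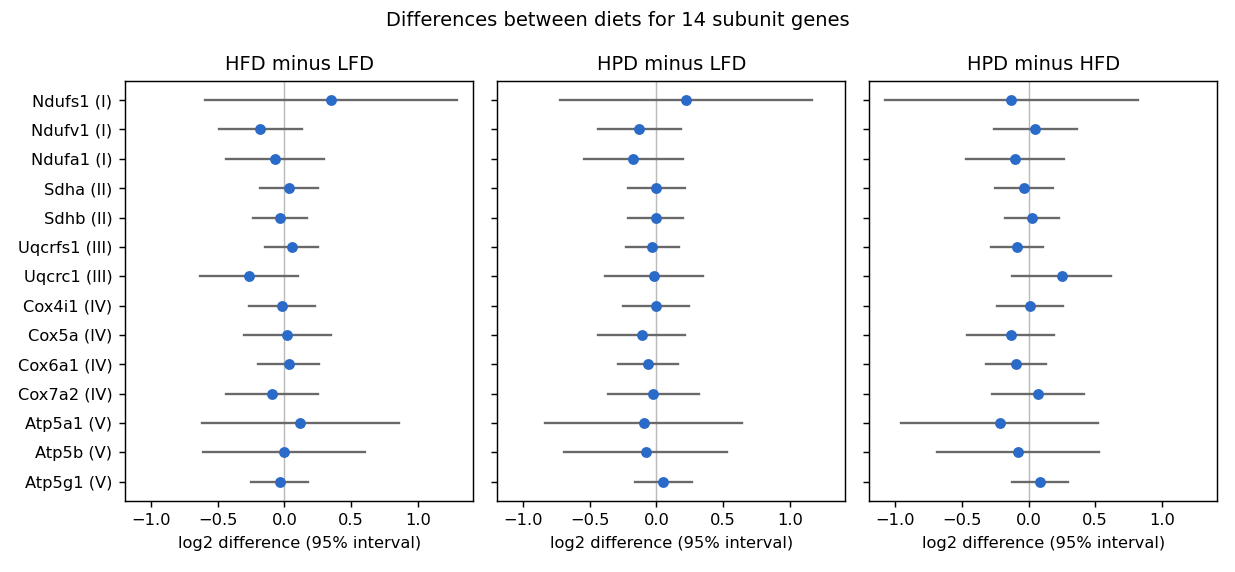
Log2 difference between diets (x axis, with its 95% limma interval) for 14 subunit genes named by a fixed list, in the 3 comparisons. Every interval crosses 0, and those of Ndufs1, Atp5a1 and Atp5b are the widest, with SEs of 0.45, 0.35 and 0.29.

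Between rats of one diet, most subunits varied less than the median gene, in a comparison not matched for signal strength. The mean Cy5 signal of the subunits ran from 25.3 (Cox8h) to 104245 (Atp5e). The median spot of an array was at 30.4 (LFD replicate 5) to 59.8 (LFD replicate 2). The SD of the log2 ratio within diets had a median of 0.148 over the 65 subunits, beside 0.362 over all genes and 0.306 over genes above background on all 18 arrays. Of the 65, 59 lay below the first and 56 below the second of these medians. By complex the medians were 0.153, 0.122, 0.123, 0.165 and 0.148 for I to V, and without LFD replicates 2 and 6 the median of all 65 was 0.117.

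**Figure D4:**
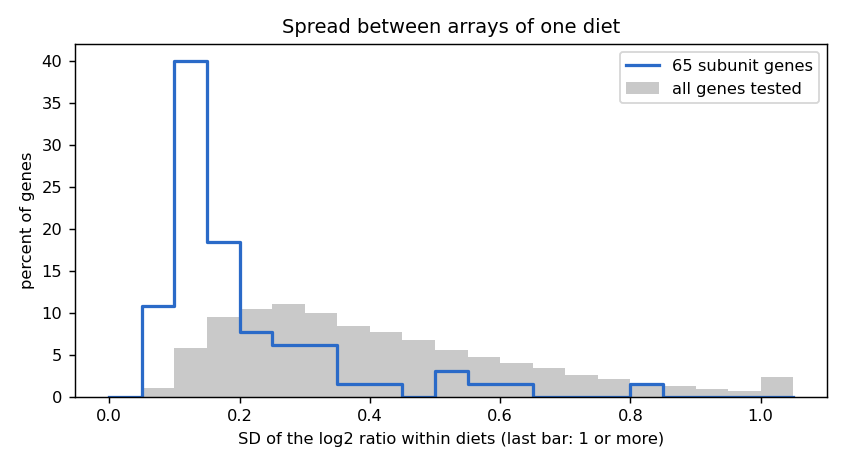
Percent of genes (y axis) by the SD of their log2 ratio within diets (x axis, bins of 0.05, the last holding 1 or more) for all 21614 genes tested (grey) and the 65 subunits (blue line). The fullest bin of the subunits starts at 0.1 and holds 40.0% of them, where it holds 5.76% of all genes.

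A few subunits varied widely between rats. Ndufs1 had the highest residual SD, at 0.834, followed by Atp5a1 (0.645), Cox6b2 (0.555), Atp5b (0.527) and Ndufs4 (0.509). The extremes of Ndufs1, Atp5a1 and Atp5b were LFD replicates 2 and 6, those of Cox6b2 HPD replicates 5 and 3, and those of Ndufs4 LFD replicate 6 and HPD replicate 1. The genes described next, with large values on LFD replicates 2 and 6, were picked out after their values were seen, so no test is given. Ndufs1 was at 1.31 on LFD replicate 2 and -2.42 on LFD replicate 6, Atp5a1 at 0.95 and -2.12, Atp5b at 0.69 and -1.69, and Uqcrc1 at 0.13 and -1.05. 4 small subunits lay on the other side of the pool: Uqcrb, the ubiquinone-binding protein of complex III, was at -0.87 and 0.89, Ndufa11 at -0.67 and 0.56, Ndufa2 at -0.41 and 0.75 and Ndufa7 at -0.61 and 0.74. On LFD replicate 6 the T cell markers averaged -0.71, the B cell markers -0.56 and the monocyte markers -0.84, each the lowest of the LFD arrays. The 3 neutrophil markers tested averaged 0.76 there, the highest LFD array, and -1.37 on LFD replicate 2, the lowest. The part of these markers in the subunit values was not tested.

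Outside the LFD group Ndufs1 and Atp5a1 had narrower ranges. Ndufs1 ran from -0.43 to 0.73 on HFD and from -0.76 to 0.48 on HPD, Atp5a1 from -0.22 to 0.19 and from -0.54 to 0.05. Without the 2 arrays the residual SD of Ndufs1 was 0.513 in place of 0.834, that of Atp5a1 0.268 in place of 0.645 and that of Atp5b 0.200 in place of 0.527. The first principal component of the subunit residuals held 57.8% of their variance, with LFD replicates 6 and 2 at its ends. Ndufs1 and Atp5a1 had the largest loadings on one side and Uqcrb on the other.

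**Figure D5:**
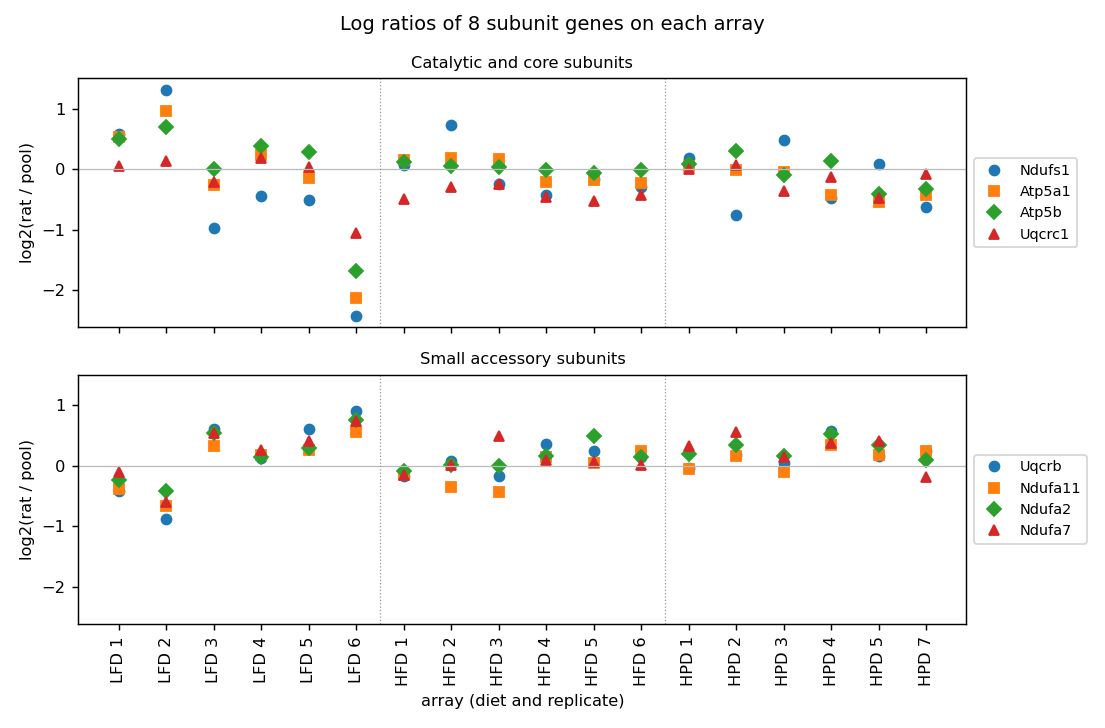
Log2 ratio of rat to pool (y axis) on each of 18 arrays (x axis) for Ndufs1, Atp5a1, Atp5b and Uqcrc1 (top) and Uqcrb, Ndufa11, Ndufa2 and Ndufa7 (bottom), genes chosen after their values were seen. On LFD replicate 6 the upper genes lie between -2.42 and -1.05 and the lower genes between 0.56 and 0.89.

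Probes of one gene did not always move together on that array. On LFD replicate 6 the brighter probe of Ndufa9, a complex I accessory subunit, was at -0.53 and its dimmer probe at 0.51. The dimmer probe of Atp5g3 was at 0.56 where the brighter was at 0.01, and the 3 probes of Ndufc2 were at -0.05, 0.69 and 1.20. The pairs of Ndufs8 (0.07 and 0.10) and Cox5b (0.13 and 0.23) lay close. Of the 68 genes, 10 had more than 1 probe, and values above are those of the brightest.

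Subunits of complex I varied together to a small degree. Within each of the other complexes the median correlation over all 18 arrays was below that of pairs from different complexes. The median Pearson correlation of residuals over 18 arrays was 0.26 over the 435 pairs of complex I, 0.06 in complex IV and 0.06 in complex V (78 pairs each), -0.08 over the 6 pairs of complex II and -0.10 over the 10 of complex III. It was 0.13 over 1473 pairs from different complexes and 0.00197 over pairs of every 10th gene. With slide also removed, complex I gave 0.22. Without LFD replicates 2 and 6 complex I gave 0.27, and complex IV gave 0.12, above the 0.10 of pairs from different complexes. Complexes II, III and V stayed below it. These arrays share slides and a dye normalization, and the correlations are a description.

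Slide was set beside diet for each member. In a moderated F test for slide with diet in the model, 0 subunits were called (0.204% of all genes). At an unadjusted p under 0.05, 16 of 65 subunits (24.6%) passed, beside 22.1% of all genes. The lowest p were those of Ndufa2, Ndufs5b and Ndufa11, 3 complex I accessory subunits, with adjusted p of 0.0894, 0.106 and 0.111. Ndufa2 averaged -0.18 on slide 1 and 0.62 on slide 5, Ndufs5b -0.26 and 0.14, and Ndufa11 -0.39 and 0.30. Slide 1 held LFD replicate 2 and slide 5 LFD replicate 6. Slide 5 held 2 arrays in all.

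The genes around the chain gave the same count of calls. Of 23 assembly factors tested, 15 coenzyme Q and electron carrier genes, 17 regulators and 24 genes of the mitochondrial membrane, import and mass, 0 were called in any comparison. At an unadjusted p under 0.05, 1 passed, beside 2.12%, 2.97% and 3.11% of all genes in the 3 comparisons. It was Phb, prohibitin of the inner membrane, with HFD minus LFD of -0.47 ± 0.19 (limma unadjusted p = 0.0223, adjusted p = 0.9999). The median differences of the 4 lists ran from -0.04 to 0.03 for HFD against LFD, from 0.000591 to 0.10 for HPD against LFD and from -0.01 to 0.12 for HPD against HFD.

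Single members of these lists are given by the lowest p. Taco1, a translational activator for complex IV, had HFD minus LFD of -0.53 ± 0.25 (limma unadjusted p = 0.0528). Pprc1, a coactivator of the PGC-1 family, had HPD minus HFD of 0.24 ± 0.13 and HPD minus LFD of 0.22 ± 0.13. Coq8a, needed for coenzyme Q synthesis, had -0.26 ± 0.17 for HFD against LFD and 0.27 ± 0.17 for HPD against HFD. Of the factors whose motifs were searched, Gabpa differed by 0.00947, 0.07 and 0.06, each ± 0.15, and Yy1 by 0.25, 0.28 and 0.03, each ± 0.26. Tfam, which packages mitochondrial DNA, differed by 0.02, 0.12 and 0.09, each ± 0.11.

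Monocyte, platelet, NK cell and neutrophil markers had mean differences between diets larger in size than those of the complexes. In the 3 comparisons NK cell markers differed by 0.11, -0.20 and -0.31 and neutrophil markers by 0.27, 0.19 and -0.08. So did red cell precursor markers in HPD against LFD and HPD against HFD, but not in HFD against LFD, at 0.00519. All 6 monocyte markers tested were lower in HPD than in HFD, with a mean difference of -0.70. The 6 platelet and 6 red cell markers had lower means in HPD than LFD, with mean differences of -0.57 and -0.84. The red cell mean was 0.97 and 0.54 on LFD replicates 1 and 2, on slide 1, which held no HPD array. On slide 4 it was -0.99 and -1.29 on LFD and -1.25 and -0.74 on HPD. On slide 3 it was 1.16 on LFD replicate 3 and -1.70 on HPD replicate 5. The part of slide in the red cell difference was not tested. The platelet markers averaged 1.21 on LFD replicate 2, and without LFD replicates 2 and 6 their median difference was -0.29 in place of -0.64. None of these markers was called. Over the arrays the monocyte mean ran from -0.84 to 0.46 on LFD, -0.63 to 1.05 on HFD and -1.70 to 0.43 on HPD. Its medians were -0.12, -0.17 and -0.64, and HFD replicates 1 and 6 were at 1.05 and 0.83, with the other HFD arrays below the pool. The part of cell mixture in the subunit values was not tested.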

How the data were processed

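PBMC RNA of 18 rats was measured on 2-colour rat 4x44K arrays, 1 rat per array in Cy5 against a pool in Cy3. Per the submitters' processing notes the scans were read with Agilent Feature Extraction 10.5.1.1. The authors deposited processed signals, per the file headers linear intensity values that the scanner software had background-subtracted, detrended and dye-normalized, beside flags of 0 or 1 for each spot. A second deposited table holds log2 values with no stated processing. The median of its LFD replicate 1 column is 8.40. The differences between arrays in that table track the processed log ratios at r = 0.891 and a slope of 0.702, with unknown centring. The table served as an alternative.

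The value is log2(Cy5/Cy3) of the processed signals, with marked outlier spots set to missing and spots of a probe averaged. A gene was tested where its Cy5 signal was well above background on 5 or more arrays, with its brightest probe, which gave 21614 genes. Between 53.3% and 63.5% of spots were well above background per array, and the number of arrays limits the precision. Group means were fitted over all 18 arrays with limma 3.58.1 (R 4.3.3), with Benjamini-Hochberg adjustment over all genes and a threshold of 0.05. The fit was tested on simulated data. The samples are separate animals per the labels. The log ratios of HFD replicates 1 and 6 correlated at 0.62 over genes, and the reason was not tested. With these 2 averaged into 1, the members with a limma unadjusted p under 0.05 were 0, 1 and 0 in the 3 comparisons (all genes 1.76%, 2.90% and 2.175%). Alternatives covered background correction, centring, scaling, filters, probes, slide, pairing, weights, the conflicting label and each array left out. Promoters are those of RefSeq (GRCr8), and subunit names follow the array files. The named genes were the lowest p per complex, direction and comparison, a list of 14 subunits, the tissue forms, the lowest p of each F test and the 2 lowest p of each pathway list per comparison, of which the text gives those its results turn on. The members and lists were chosen with earlier results of these data known.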

Additional observations from a re-analysis of the deposited data

Results flagged for a closer look

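Of 129 groups of 6 arrays tested among the reported members and complex means, 8 had 1 array far from the other 5 (past Dixon's 95% limit on the gap over the range), which is 6.2%, where chance gives about 1 in 20. Of the 8, 6 were LFD groups. On LFD replicate 6, Uqcrc1 was at -1.05 (others -0.22 to 0.19), Atp5b at -1.69 (0.00840 to 0.69), Ndufa9 at -0.53 (-0.11 to 0.07) and Cox7a2l at -0.43 (-0.13 to 0.05). The mean of complex V was at -0.24 on that array (others -0.03 to 0.05). On LFD replicate 2, Cox6a1 was at 0.24 (others -0.26 to -0.09). On HPD replicate 7, the array with conflicting labels, Ndufa9 was at -0.32 (others -0.08 to 0.06). On HFD replicate 3, Ndufa7 was at 0.50 (others -0.15 to 0.09).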

How the results depend on the processing

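No member was called for diet under any alternative, and of 9906 values of single genes 1 reversed: Mfn2, a membrane fusion gene, for HPD against LFD, was at -0.18 with the mean of all its probes against 0.15 with the brightest. A value was counted as reversed where it exceeded its SE in both settings with opposite sign. A difference smaller than its SE could thus not be counted. The median absolute difference of the subunits was 0.04, 0.05 and 0.08, beside a median SE of 0.10. Atp5a1 in HFD against LFD, at 0.12 and at -0.10 without LFD replicates 2 and 6, was not counted. The count therefore says little about the sign of small differences. For slide, 2 members were called with no diet in the model, against 0 with it. They were Ndufa2 and Ndufs5b, with adjusted p of 0.0404 and 0.0493 (limma moderated F test). The share over all genes is not given for that model, so the 2 calls are not read as a trait of the members. With diet in the model, 24.6% of subunits and 22.1% of all genes had an unadjusted p under 0.05 for slide (limma moderated F test).

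Of 68 members, 0, 1 and 0 had an unadjusted p under 0.05 in HFD against LFD, HPD against LFD and HPD against HFD, beside 2.12%, 2.97% and 3.11% of all genes. They were 1, 2 and 0 with normexp fitted to all spots (all genes 2.53%, 5.38% and 4.2%), 0, 2 and 0 with normexp fitted without marked spots (1.71%, 2.89% and 3.18%) and 1, 1 and 2 with scaling between arrays (3.3%, 3.44% and 4.51%). Cy5 alone gave 3, 3 and 1 (4.21%, 4.86% and 3.96%), the authors' table, with 65 members, gave 0, 0 and 0 (1.29%, 1.94% and 2.95%) and the mean of all probes gave 0, 2 and 0 (2.16%, 2.94% and 3.09%). Leaving out slide 1 gave 1, 2 and 0 (6.04%, 7.55% and 2.39%), array weights 2, 2 and 1 (6.82%, 9.27% and 7.53%), and counting the conflicting array as HFD 0, 1 and 1 (1.84%, 3.36% and 3.17%). Leaving out LFD replicates 2 and 6, chosen after seeing the data, gave 3, 2 and 2 (5.14%, 6.02% and 5.46%). With 1 array left out at a time they ran from 0 to 2, 0 to 4 and 0 to 2. The 4 came without LFD replicate 6 (all genes 8.78%), which also gave 2 and 2 in the other comparisons (4.32% and 4.05%), and the 2 in the first came without LFD replicate 2 as well (5.63%). The second was 0 without LFD replicate 2, 3 or 4 or HPD replicate 2, 4 or 5, and the third was 1 without HPD replicate 1. The causes were not tested.

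Replicate numbers did not pair the arrays: deviations of the 16 same-numbered pairs correlated at -0.31 to 0.22, with 5 over 0.1. With the replicate block the counts were 0, 1 and 1 (2.4%, 3.98% and 4.25%).

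Complex means stayed within 1 SD of their per-array spread except in 24 of 690 values. In the authors' table HFD minus LFD was -0.0854 for complex I, -0.0558 for II, -0.0944 for V and -0.0850 for all subunits, and HPD minus HFD 0.164, 0.121, 0.167 and 0.150, where the medians of all its genes were -0.03 and 0.06. With Cy5 alone complex II gave 0.0749 for HFD minus LFD, 0.138 for HPD minus LFD and 0.0628 for HPD minus HFD. Within slide 1, HFD minus LFD was 0.0772 for complex III. Within slide 3 it was -0.0801 for I and -0.167 for III. Within slide 5 it was 0.120 for I, 0.0692 for II, 0.218 for V and 0.0774 for all subunits. Within slide 3, HPD minus LFD was -0.0458 for I, -0.156 for III, -0.137 for IV and -0.0676 for all subunits. HPD minus HFD was 0.0687 for II within slide 2 and -0.0967 for IV within slide 3. The alternative that moves Ndufa4 to complex IV was not run, since no such name passed the rule.

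Dim members (Cox6b2, Cox8h and Ndufs4, above background on 16, 16 and 17 arrays) are less certain than the rest.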
